A study of Mus musculus with 12 samples.

Results

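Cells that had received a non-targeting siRNA (Scramble) were compared with starved cells held without calcium (Vehicle) across the whole gene table, in GT1-7 cells. GT1-7 is an immortalised line of mouse hypothalamic neurons that produces gonadotropin-releasing hormone (GnRH). Of the 12 RNA-seq samples of the series, 8 enter the comparison, 4 Scramble and 4 Vehicle, and they were taken by their group labels. The table holds 12638 genes, of the 12786 that at least 1 table of the series lists, and 12633 of them could be tested. The Scramble cells were transfected for 24 h in Opti-MEM I with lipofectamine, and carried an siRNA meant to target no gene. The Vehicle cells are not described as transfected. They spent 6 h without serum and then 1 h in DMEM free of Ca2+ before collection. Both groups came from stock kept in DMEM with 10% fetal bovine serum. Transfection, medium, serum and Ca2+ therefore differ together between the groups, and their parts in any difference cannot be told apart. A further 4 samples that received a Klf4 siRNA under the Scramble conditions are quoted here only as levels, with no test. The labels name no separate cultures within a group, and p-values therefore measure the spread between these samples, which may be technical.

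As background, cells read their surroundings through a few well-known gene programmes. Serum and growth factors act through the ERK kinase pathway on immediate-early genes such as Fos, and ERK in turn raises its own inhibitors. The endoplasmic reticulum (ER) folds secreted and membrane proteins with chaperones that need lumenal Ca2+, and the unfolded protein response raises their genes when folding falls behind. The integrated stress response acts through the transcription factor ATF4 on genes of amino acid supply. Sterol supply is sensed by SREBP factors, which switch on cholesterol and fatty acid synthesis. A neuroendocrine cell such as a GnRH neuron also carries the machinery that processes, packs and releases peptide hormone.

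The libraries held 25990602 to 39672315 counts in Scramble and 28450091 to 35558629 in Vehicle. The biological coefficient of variation was 7.3%. The first principal component, with 72% of the variance, parted the groups. The second, with 8.1%, set Vehicle 1 apart at -19.62 from the other Vehicle samples at 1.42 to 11.66. Fos, Junb, Egr2, Cxcl1 and the immediate-early and ERK feedback lists are therefore also given without Vehicle 1. Other results in which Vehicle 1 stands out, such as Cdkn1a, are not shown singly without it. Klf4 had 3.4 to 4.58 counts per 1000000 of the library (CPM) in Scramble and 4.24 to 5.52 CPM in Vehicle, and it was not called (log2 fold change -0.24, SE 0.14, edgeR adjusted p = 0.16). Gnrh1, the hormone gene, had 1511, 1721, 1636 and 1839 CPM in the Scramble samples, against 749, 597, 656 and 683 CPM in the Vehicle samples. Of 8 measured neuron markers 6 rose and 1 fell, and the summed list took 0.0593% to 0.0635% of counts in Scramble against 0.0533% to 0.0556% in Vehicle. The astrocyte markers Gfap and Aqp4, the oligodendrocyte factors Olig1 and Olig2, the microglial genes Aif1 and Cx3cr1 and the endothelial genes Pecam1 and Cdh5 are not listed in the table. The neuronal genes Snap25, Stmn2 and Gap43 are not listed either. Markers of other cell types that were listed took little: 2 of 7 astrocyte markers held 0.00587% to 0.00653% of counts in Scramble and 0.00746% to 0.00856% in Vehicle, and 5 of 9 fibroblast and pericyte markers 0.0123% to 0.013% in Scramble and 0.0163% to 0.0173% in Vehicle. The 3 of 9 oligodendrocyte markers listed held 0.00174% to 0.00193% in Scramble and 0.00287% to 0.00373% in Vehicle. The 3 of 9 microglial markers held 0.00346% to 0.00388% in Scramble and 0.00411% to 0.00489% in Vehicle, and the 1 of 8 endothelial markers 0.0034% to 0.00421% in Scramble and 0.00467% to 0.00529% in Vehicle. Each of these summed shares was thus lower in every Scramble sample. Their part in the results was not tested. A CPM is a share of a library, so fewer cells of a kind and less RNA per cell cannot be told apart.

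Changes across the table were many and mostly small. A gene was called at an edgeR adjusted p under 0.05, and 6810 genes passed (53.9% of those tested). Of these 3445 rose in Scramble (27.3%) and 3365 fell (26.6%). The median log2 fold change over all tested genes was 0.005, and the median size of the change was 0.22. In 6108 of the 12633 tested genes the groups did not overlap, so a lack of overlap was common. At least a 2-fold change was seen in 320 of the genes that rose (2.53%) and in 322 of those that fell (2.55%). With so many genes called, the counts in the lists that follow are read against 27.3% for a rise and 26.6% for a fall. When each gene was instead tested against a change of 1.2-fold, 1512 rose and 1296 fell. An FDR of 0.05 in the authors' deposited table was passed by 6906 of these genes. Of them, 6684 were called here with the same direction and 0 with the other. There were 35 lists of stress, growth and secretory genes and 7 of cell identity, and 16 genes stand on more than 1 list, among them Myc, Atf3, Cdkn1a and Sqstm1. The lists were chosen with earlier results on these samples known, so their direction is a description.

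**Figure D1:**
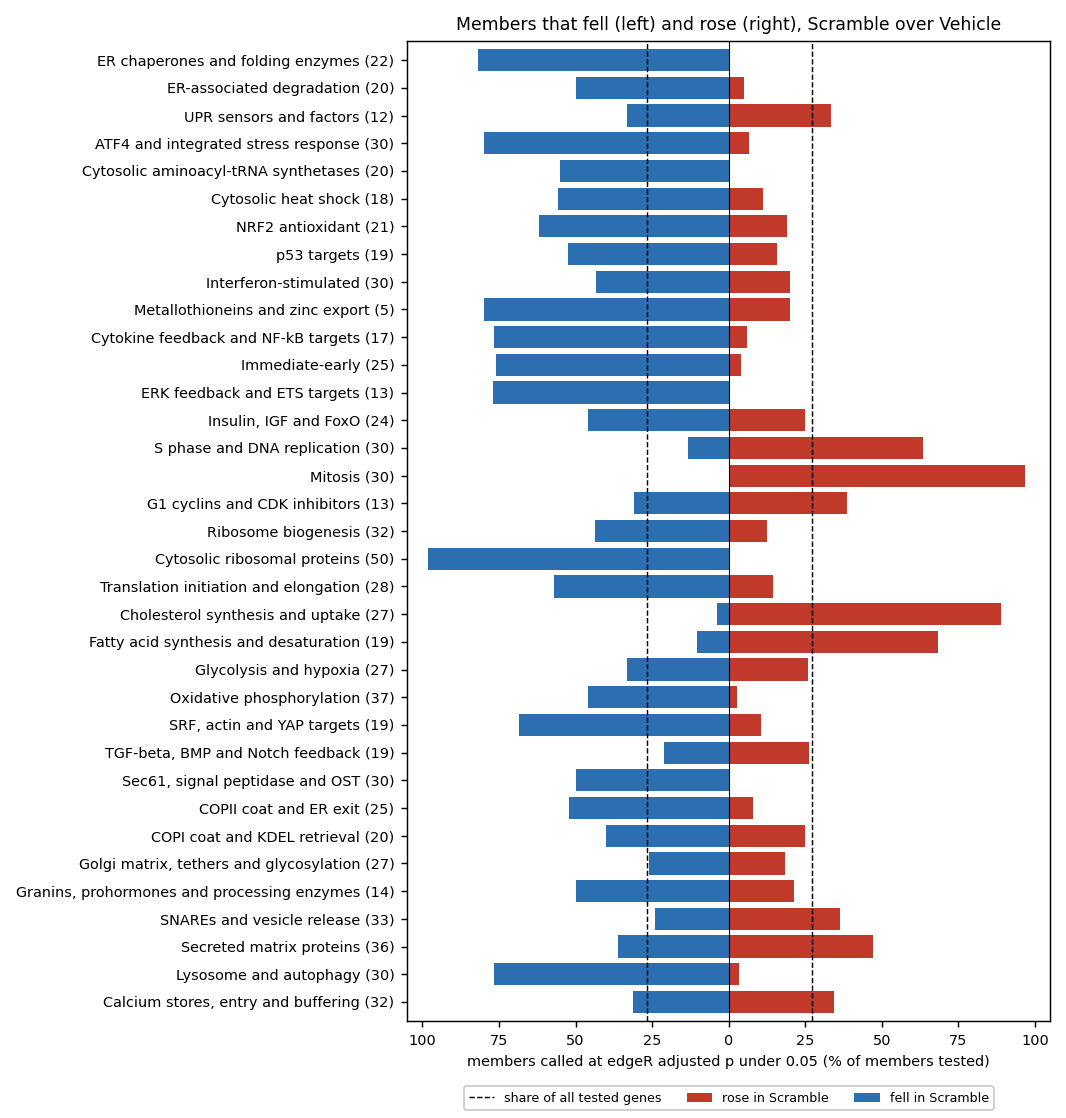
Each bar gives the share of a list's tested members, in percent, that fell (left, blue) or rose (right, red) in Scramble over Vehicle, with the number tested in brackets and dashed lines at the shares of all tested genes, 26.6% and 27.3%. Mitosis and cholesterol synthesis reach 96.7% and 88.9% on the right, while ribosomal proteins, ER chaperones, the ATF4 list and lysosome genes lie far to the left.

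Growth-signal genes were lower in Scramble. Of 25 immediate-early genes, which cells transcribe first after a stimulus, 19 fell, 1 rose and 5 were not called, with a median log2 fold change of -1.13. Fos, a subunit of the AP-1 factor (chromosome 12, 85473890 to 85477273, plus strand), had 15.2, 12.7, 15.7 and 15.6 CPM in Scramble samples 1 to 4, against 157, 69.1, 70.9 and 106 CPM in Vehicle samples 1 to 4. The groups lay far apart, and Vehicle 1 was the highest sample. Fos fell by 2.77 on the log2 scale (SE 0.22, edgeR adjusted p = 3.3e-07), and by 2.47 without Vehicle 1. Myc, which drives growth and ribosome production (chromosome 15, 61985391 to 61990374, plus strand), had 10.7, 9.28, 9.89 and 9.68 CPM in Scramble, against 83.1, 69.3, 63.7 and 67 CPM in Vehicle. Every Scramble sample thus lay far under every Vehicle sample, and Myc fell by 2.84 on the log2 scale (SE 0.09, edgeR adjusted p = 2.9e-11). Junb, another AP-1 subunit, averaged 60.2 ± 2.82 CPM in Scramble and 279 ± 70.3 CPM in Vehicle (SD, n = 4 each, as for every ± that follows), and Egr2, a zinc finger factor, 7.23 ± 0.555 and 35.2 ± 11.2 CPM in the same order. Vehicle 1 was again the top sample for both, and both still stood at -2.04 without it. Jun, by contrast, overlapped between the groups at 169 to 209 CPM in Scramble and 164 to 247 CPM in Vehicle, and was not called (log2 fold change -0.22, SE 0.10, edgeR adjusted p = 0.092). The immediate-early list took 0.0941% to 0.1% of counts in Scramble, against 0.288% in Vehicle 1 and 0.202% to 0.229% in the other Vehicle samples. Without Vehicle 1, 18 members fell.

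Feedback inhibitors of ERK and ETS-type target genes followed the same direction. Of 13 genes of this list, which also holds the ETS factors Etv1 and Etv5, 10 fell, 0 rose and 3 were not called, with a median log2 fold change of -1.12, and 9 fell without Vehicle 1. Dusp6, the phosphatase that switches off ERK in the cytoplasm (chromosome 10, 99263231 to 99267489, plus strand), had 6.1, 6.11, 6.44 and 7.6 CPM in Scramble, against 32.2, 27.7, 28.9 and 28.1 CPM in Vehicle. The samples of each group were tight and the groups did not overlap (log2 fold change -2.15, SE 0.09, edgeR adjusted p = 4.7e-10). Spry1, an inhibitor of receptor tyrosine kinase signalling, averaged 2.55 ± 0.521 CPM in Scramble and 10.5 ± 1.1 CPM in Vehicle. Errfi1, which restrains the epidermal growth factor receptor, averaged 24.1 ± 1.63 CPM in Scramble and 82.5 ± 8.37 CPM in Vehicle. Outside this list, Sgk1, a kinase gene induced by serum and glucocorticoids, was among the largest falls of the table. It had 16.4 to 17.5 CPM in Scramble against 80.7 to 96 CPM in Vehicle (log2 fold change -2.35, SE 0.07). In the Klf4 siRNA samples these genes also lay under Vehicle, with Dusp6 at 13.1 ± 1.5 CPM, Myc at 23.3 ± 1.18 CPM and Sgk1 at 18 ± 1.45 CPM (SD, n = 4). Those samples are scaled over all 12 libraries, a scale that sets CPM 0.639% to 0.706% above the one used for the other levels.

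Of 17 cytokine feedback and NF-kB target genes 13 fell, 1 rose and 3 were not called, with a median of -0.83. Osmr, the receptor subunit for oncostatin M, had 3.29, 3.64, 4.02 and 2.34 CPM in Scramble, against 15.4, 15.4, 16.3 and 16.5 CPM in Vehicle. No Scramble sample came near the Vehicle range (log2 fold change -2.27, SE 0.13, edgeR adjusted p = 1.2e-08). Nfkbia, the inhibitor that NF-kB induces, averaged 95.8 ± 1.5 CPM in Scramble and 161 ± 2.06 CPM in Vehicle. The chemokine gene Ccl2 averaged 38 ± 1.78 CPM in Scramble and 86.9 ± 10.3 CPM in Vehicle. Cxcl1, another chemokine gene, had 1.94 to 2.7 CPM in Scramble, against 19.9 CPM in Vehicle 1 and 6.67 to 11.3 CPM in the other Vehicle samples, and stood at -2.04 without Vehicle 1 against -2.37 with it. The shared receptor subunit gene Il6st differed little, at 154 ± 3.98 CPM in Scramble and 170 ± 6.44 CPM in Vehicle.

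**Figure D2:**
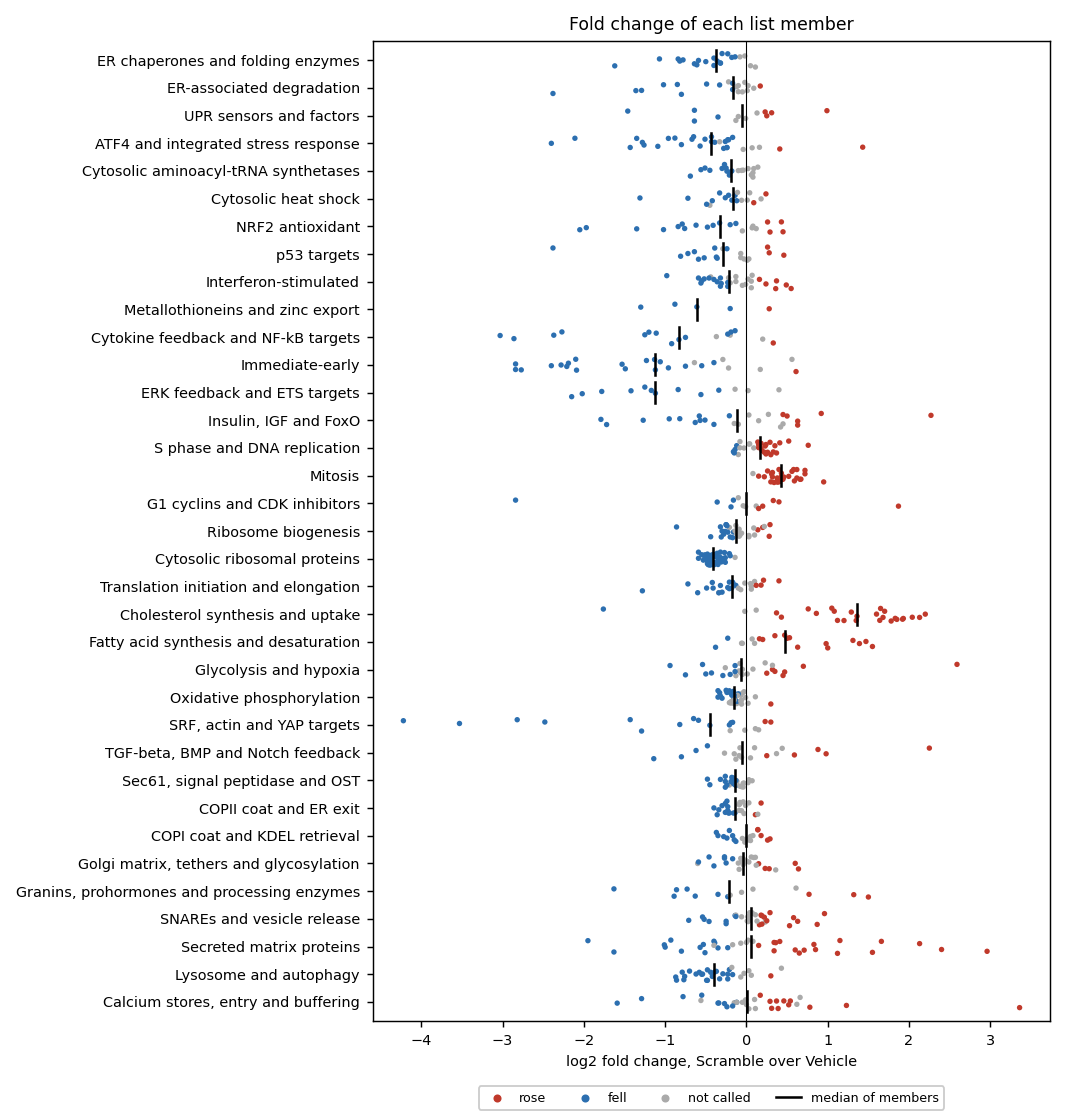
Each point is a list member's log2 fold change, Scramble over Vehicle, coloured by its call (red rose, blue fell, grey not called), and black bars mark list medians. Immediate-early and ERK feedback genes have the lowest medians, -1.13 and -1.12, 1 SRF target reaches -4.22, and the cholesterol list centres at 1.36. The medians of translocon, COPII and Golgi genes lie near 0, while single Golgi members reach from -0.6 to 0.64.

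ER folding genes were lower in Scramble. Of 22 ER chaperones and folding enzymes 18 fell, 0 rose and 4 were not called, with a median log2 fold change of -0.38, and the list took 1.02% to 1.09% of counts in Scramble against 1.65% to 1.72% in Vehicle. Hspa5, the ER Hsp70 chaperone BiP, carries the largest part of that share, at 1769, 1529, 1491 and 1683 CPM in Scramble, against 4848, 5314, 4773 and 4910 CPM in Vehicle. Calr, the Ca2+-binding lectin chaperone calreticulin (chromosome 8, 84841850 to 84846934, minus strand), had 1092, 1106, 1061 and 1157 CPM in Scramble, against 1940, 1983, 1952 and 2036 CPM in Vehicle. Both genes were thus lower in each Scramble sample than in any Vehicle sample, and Calr fell by 0.84 on the log2 scale (SE 0.04, edgeR adjusted p = 9.5e-10). Hsp90b1, the ER Hsp90 GRP94, averaged 1404 ± 36.4 CPM in Scramble and 2190 ± 53.7 CPM in Vehicle. Manf, a secreted ER-resident factor that is released when ER Ca2+ drops, averaged 163 ± 8.59 CPM in Scramble and 344 ± 31 CPM in Vehicle (log2 fold change -1.07, SE 0.06, edgeR adjusted p = 1.3e-08). Calr's membrane-bound counterpart calnexin, Canx, did not follow: it had 643 to 670 CPM in Scramble and 606 to 657 CPM in Vehicle, and was not called (log2 fold change 0.05, SE 0.04, edgeR adjusted p = 0.25). The Klf4 siRNA samples lay close to Scramble for these genes, with Calr at 982 ± 21.6 CPM and Manf at 143 ± 4.8 CPM.

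Promoter sequence shows what several of these genes share. The ER stress response element is the known binding site of the factors ATF6 and NF-Y, with CCAAT and CCACG held 9 bases apart, and it was searched on both strands of RefSeq promoter windows of build GRCm38.p6, each with 250 bases before and 50 after a gene's start. A window was found for 17 of the 22 chaperone genes, and 7 of these genes hold the element: 7 of their 22 windows (31.8%), against 39 of all 32851 windows (0.119%). The element contains a CCAAT box by construction, and CCAAT alone stands in 81.8% of the chaperone windows and 37.4% of all. Of the 7 genes 6 fell, and the exception was Canx. This is near the share of the whole list, of which 18 of 22 fell. In the ER-associated degradation list, Derl3 and Syvn1 hold it and both fell. The Hspa5 window (chr2:34771840-34772139, plus strand) is shown whole because the gene is the most changed of the chaperones, with the element in capitals, and the other sites follow with 6 bases on each side, given on the strand of the gene, so that an element on the other strand reads CGTGG first. Of the 2 matches in the Hsp90b1 window 1 is shown.
Hspa5: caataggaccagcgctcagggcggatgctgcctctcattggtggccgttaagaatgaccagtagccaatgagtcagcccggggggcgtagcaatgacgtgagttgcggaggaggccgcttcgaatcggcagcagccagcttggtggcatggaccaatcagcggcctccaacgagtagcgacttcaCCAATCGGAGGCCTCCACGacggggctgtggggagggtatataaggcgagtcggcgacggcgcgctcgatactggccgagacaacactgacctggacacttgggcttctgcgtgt
Hsp90b1 (chr10:86705632-86705662, minus): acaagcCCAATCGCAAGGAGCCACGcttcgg
Calr (chr8:84847069-84847099, minus): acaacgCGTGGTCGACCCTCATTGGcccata
Pdia6 (chr12:17266485-17266515, plus): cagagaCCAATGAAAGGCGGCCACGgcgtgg
Creld2 (chr15:88819514-88819544, plus): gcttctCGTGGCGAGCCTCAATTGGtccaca
Dnajc3 (chr14:118937821-118937851, plus): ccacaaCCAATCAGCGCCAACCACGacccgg
Canx (chr11:50325794-50325824, minus): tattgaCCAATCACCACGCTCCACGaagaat
Derl3 (chr10:75893236-75893266, plus): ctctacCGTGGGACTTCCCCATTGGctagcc
Syvn1 (chr19:6046526-6046556, plus): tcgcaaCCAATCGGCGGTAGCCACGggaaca

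Among the genes printed with the element, Pdia6, a disulfide isomerase, averaged 857 ± 31.8 CPM in Scramble and 1307 ± 51 CPM in Vehicle. Creld2 averaged 115 ± 8.45 CPM in Scramble and 203 ± 14.2 CPM in Vehicle, and the co-chaperone gene Dnajc3 averaged 178 ± 4.05 CPM in Scramble and 252 ± 8.42 CPM in Vehicle. None of these 3 overlapped between the groups, as was the case for 6108 of all 12633 tested genes. Over the whole table, 19 tested genes had the element in a window, of which 12 fell and 4 rose. Outside the ER folding and degradation lists there were 10 such genes, 4 of which fell and 4 rose. A match describes the letters of a window and does not show that a factor binds there.

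Of 20 genes of ER-associated degradation, which draws misfolded proteins out to the proteasome, 10 fell, 1 rose and 9 were not called (median -0.17). Derl3, a channel component, had 2.23, 1.86, 2.46 and 1.86 CPM in Scramble, against 9.75, 11.5, 11.3 and 10.9 CPM in Vehicle. It was the most changed member (log2 fold change -2.38, SE 0.12, edgeR adjusted p = 4.1e-09). The ubiquitin ligase gene Syvn1 averaged 65.9 ± 2.28 CPM in Scramble and 115 ± 1.83 CPM in Vehicle, and Selenos, which links the channel to the extraction motor, 75.8 ± 2.64 and 137 ± 4.32 CPM in the same order. That motor, Vcp, was not called, at 854 to 886 CPM in Scramble and 887 to 985 CPM in Vehicle (edgeR adjusted p = 0.056). The sensors and factors of the unfolded protein response went both ways: 4 of 12 rose, 4 fell and 4 were not called. The sensor kinase gene Eif2ak3 (PERK) fell, at 66 ± 2.48 CPM in Scramble and 103 ± 5.01 CPM in Vehicle, and so did Creb3, a membrane-tethered factor, at 62.3 ± 2.3 and 96.9 ± 3.94 CPM. Mbtps1, the protease that releases ATF6 and SREBP from the membrane, rose to 395 ± 28.3 CPM in Scramble, against 331 ± 19.4 CPM in Vehicle.

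The integrated stress response list also moved down in Scramble. Of 30 measured members 24 fell, 2 rose and 4 were not called, with a median log2 fold change of -0.43. With the test against 1.2-fold, 15 fell. Ppp1r15a, the phosphatase subunit that reverses eIF2alpha phosphorylation (chromosome 7, 45522916 to 45526268, minus strand), had 51.6, 47.7, 52.9 and 51.1 CPM in Scramble, against 225, 223, 210 and 218 CPM in Vehicle. The 4 samples of each group lay within a narrow band (log2 fold change -2.11, SE 0.05, edgeR adjusted p = 1.9e-12). Atf3, a stress-induced factor that also stands on the immediate-early list, had 35.2, 33.2, 37.3 and 34.8 CPM in Scramble, against 195, 193, 167 and 186 CPM in Vehicle. Ddit3 (CHOP) averaged 55 ± 3.19 CPM in Scramble and 117 ± 5.45 CPM in Vehicle, by the gene ID with the most counts of the 2 that carry this symbol. Trib3, a pseudokinase gene induced by ATF4 and CHOP, averaged 42.4 ± 6.56 CPM in Scramble and 103 ± 6.06 CPM in Vehicle, and Asns, asparagine synthetase, 121 ± 12.1 and 210 ± 7.16 CPM in the same order. The exceptions that rose were Cebpg, which pairs with ATF4, and Ddit4, an inhibitor of the growth kinase mTORC1. Slc7a5, the large neutral amino acid transporter, had 548 to 610 CPM in Scramble and 503 to 583 CPM in Vehicle, and was not called (edgeR adjusted p = 0.25). In the Klf4 siRNA samples Ddit3 stood at 106 ± 6.67 CPM and Trib3 at 84.7 ± 7.86 CPM, between the Scramble and Vehicle means.

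The composite site of C/EBP and ATF factors, TGATGNAA, was found on either strand in 8 of the 25 list members with a window, in 25.8% of their windows against 3.97% of all. All 8 fell, in a list of which 24 of 30 tested members (80%) fell. For Vldlr the groups overlapped, at 3.55 to 5.3 CPM in Scramble and 5.28 to 6.91 CPM in Vehicle. The sites of the 8 genes are shown in capitals, with 8 bases on each side on the strand of the gene. A site on the other strand thus appears as its reverse complement. Of the 2 matches in the Slc7a11 window 1 is shown.
Atf3 (chr1:191183428-191183451, minus): tctcgcacTTGCATCAccaagtcc
Chac1 (chr2:119351041-119351064, plus): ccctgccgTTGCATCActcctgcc
Nupr1 (chr7:126625565-126625588, minus): gggccagaTTGCATCAgacagggc
Vldlr (chr19:27216812-27216835, plus): agcaatagTTGCATCAgcgctcct
Slc7a11 (chr3:50443664-50443687, minus): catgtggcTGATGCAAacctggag
Trib3 (chr2:152344031-152344054, minus): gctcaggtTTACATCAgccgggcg
Pck2 (chr14:55540155-55540178, plus): cttcaaagTTACATCAgtatctta
Asns (chr6:7693217-7693240, minus): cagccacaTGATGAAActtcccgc

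The sizes differed among these 8 genes. Nupr1, a small chromatin-associated stress factor, fell to 17.8 ± 1.86 CPM in Scramble, against 47.7 ± 2.65 CPM in Vehicle. The cystine transporter gene Slc7a11 had 1.19 to 2.18 CPM in Scramble and 3.8 to 5.01 CPM in Vehicle, and Pck2, a mitochondrial gluconeogenic enzyme gene, changed least, at 131 ± 2.6 and 159 ± 8.23 CPM. Over all 261 tested genes with the site in a window, 29.1% fell and 23.8% rose, near the shares of all tested genes with a window, 26.7% and 27.5%. Outside the list, 26.9% of 253 such genes fell and 24.5% rose. Of 20 cytosolic aminoacyl-tRNA synthetases, which load amino acids onto tRNA, 11 fell, 0 rose and 9 were not called (median -0.19), and 4 fell with the test against 1.2-fold. Sars, the seryl enzyme, averaged 226 ± 4.67 CPM in Scramble and 363 ± 18.3 CPM in Vehicle (log2 fold change -0.69, SE 0.04, edgeR adjusted p = 3.5e-08). The isoleucyl enzyme gene Iars averaged 83.9 ± 5.51 CPM in Scramble and 124 ± 3.33 CPM in Vehicle.

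Other stress lists leaned down with more exceptions. Of 21 NRF2 antioxidant genes 13 fell, 4 rose and 4 were not called (median -0.33). Osgin1, an oxidative stress-induced growth inhibitor, had 22.7, 17.2, 17.9 and 22 CPM in Scramble, against 84.7, 75.7, 73.9 and 79.7 CPM in Vehicle. Its groups were wide apart (log2 fold change -1.97, SE 0.09, edgeR adjusted p = 1e-09). Sqstm1, the autophagy receptor p62, averaged 882 ± 40.8 CPM in Scramble and 1527 ± 48 CPM in Vehicle, while the peroxiredoxin gene Prdx1 overlapped, at 1138 to 1273 CPM in Scramble and 1046 to 1193 CPM in Vehicle. The members that rose were Keap1, which holds NRF2 back, Nqo1, Tkt and Gstm1. Of 18 cytosolic heat shock genes 10 fell, 2 rose and 6 were not called, and 4 fell with the test against 1.2-fold. Cryab, a small heat shock protein, averaged 142 ± 7.11 CPM in Scramble and 352 ± 20 CPM in Vehicle (log2 fold change -1.31, SE 0.05, edgeR adjusted p = 2.7e-10). The inducible Hsp70 gene Hspa1b averaged 24.9 ± 3.7 CPM in Scramble and 40.8 ± 1.54 CPM in Vehicle.

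Metal-binding and zinc export genes mostly fell, 4 of 5, and 1 rose. Mt1, a metallothionein, had 193 to 251 CPM in Scramble, against 354 to 492 CPM in Vehicle. The groups did not overlap, although each was spread (log2 fold change -0.88, SE 0.10, edgeR adjusted p = 5.1e-06). The Klf4 siRNA samples stood above both, at 601 ± 81.2 CPM. The zinc exporter gene Slc30a1 averaged 17.4 ± 3.53 CPM in Scramble and 42.9 ± 7.25 CPM in Vehicle. Of 19 p53 targets 10 fell, 3 rose and 6 were not called (median -0.29). Plk2, a stress kinase gene, had 0.907, 1.54, 1.63 and 1.91 CPM in Scramble, against 8.12, 9.06, 7.49 and 6.27 CPM in Vehicle (log2 fold change -2.38, SE 0.19, edgeR adjusted p = 3.5e-07). Cdkn1a, the cell cycle inhibitor p21, differed less, at 221 ± 9.22 CPM in Scramble and 283 ± 27.7 CPM in Vehicle, and stood at 416 ± 9.65 CPM in the Klf4 siRNA samples. Of 30 interferon-stimulated genes 13 fell, 6 rose and 11 were not called (median -0.21), and 5 fell with the test against 1.2-fold. Irf1 averaged 44.7 ± 1.3 CPM in Scramble and 88.3 ± 8.29 CPM in Vehicle, and B2m, the light chain of MHC class I, 1100 ± 37.1 and 1611 ± 222 CPM in the same order. The antiviral kinase gene Eif2ak2 and the factor gene Stat2 were among those that rose, and Ifit1, Ifit3 and Isg15, interferon-induced genes, were not called.

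Cell division genes were higher in Scramble. Of 30 mitosis genes 29 rose, 0 fell and 1 was not called, with a median log2 fold change of 0.43, and 21 rose with the test against 1.2-fold. Bub1, a spindle checkpoint kinase (chromosome 2, 127801122 to 127831865, minus strand), had 106, 119, 109 and 117 CPM in Scramble, against 53.5, 64.9, 59.9 and 54.5 CPM in Vehicle. It changed most of the list (log2 fold change 0.95, SE 0.07, edgeR adjusted p = 7.5e-08). Top2a, the topoisomerase that untangles sister chromosomes, had 807, 806, 753 and 779 CPM in Scramble, against 487, 526, 485 and 492 CPM in Vehicle. The groups stayed apart in every sample (log2 fold change 0.66, SE 0.04, edgeR adjusted p = 2.6e-08). Mki67, the proliferation marker, averaged 325 ± 14.2 CPM in Scramble and 198 ± 16.6 CPM in Vehicle. Cenpf, a kinetochore protein gene, averaged 122 ± 9.92 CPM in Scramble and 74.2 ± 1.23 CPM in Vehicle, and Cdk1, the mitotic kinase, differed least among those called, at 341 ± 12.5 and 307 ± 14.7 CPM. Cks2, a small Cdk1 partner, overlapped at 39.5 to 47 CPM in Scramble and 31.4 to 52.1 CPM in Vehicle. The list took 0.941% to 0.962% of counts in Scramble, against 0.654% to 0.68% in Vehicle. In the Klf4 siRNA samples Bub1 stood at 115 ± 10.9 CPM and Top2a at 700 ± 39.9 CPM.

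Mitotic promoters are known for a short element, the CHR, with the letters TTTGAA, through which the DREAM complex silences them early in the cell cycle. It was found on either strand in 18 of 24 mitosis genes with a window, in 76.9% of their windows, against 17.9% of all windows, and in 10% of the windows of S phase genes. CCAAT stood in 88.5% of the mitosis windows and 37.4% of all. The Mki67 window (chr7:135716330-135716629, minus strand) is printed whole because the gene is the usual proliferation marker, with its 2 elements in capitals. The others are shown with 12 bases on each side, and of the 2 matches each in the Cdk1 and Top2a windows 1 is shown.
Mki67: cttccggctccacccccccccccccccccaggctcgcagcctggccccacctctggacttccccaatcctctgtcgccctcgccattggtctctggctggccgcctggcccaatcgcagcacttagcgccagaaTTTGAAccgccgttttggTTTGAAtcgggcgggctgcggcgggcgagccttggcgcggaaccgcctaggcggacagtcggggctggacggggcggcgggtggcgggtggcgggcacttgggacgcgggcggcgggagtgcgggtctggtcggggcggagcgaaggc
Cdk1 (chr10:69352966-69352995, minus): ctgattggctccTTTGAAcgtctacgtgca
Plk1 (chr7:122159453-122159482, plus): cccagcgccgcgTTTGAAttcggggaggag
Top2a (chr11:99024351-99024380, minus): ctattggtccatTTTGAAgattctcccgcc
Aurka (chr2:172370521-172370550, minus): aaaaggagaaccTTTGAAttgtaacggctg
Cdc20 (chr4:118437344-118437373, minus): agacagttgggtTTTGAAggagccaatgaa

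The kinase genes Plk1 and Aurka averaged 249 ± 11.4 and 357 ± 5.67 CPM in Scramble, against 167 ± 9.74 and 237 ± 8.01 CPM in Vehicle. Cdc20, which activates the ligase that ends metaphase, averaged 375 ± 18.7 CPM in Scramble and 277 ± 11.7 CPM in Vehicle. Among all 1380 tested genes with TTTGAA in a window, 31.9% rose and 24.7% fell, beside 27.5% and 26.7% of all tested genes with a window. Outside the mitosis and S phase lists these shares were 30.9% and 25.1%. S phase genes moved less. Of 30, 19 rose, 4 fell and 7 were not called (median 0.17), and 4 rose with the test against 1.2-fold. Uhrf1, which guides DNA methylation to new strands, averaged 289 ± 19.6 CPM in Scramble and 171 ± 9.87 CPM in Vehicle (log2 fold change 0.76, SE 0.06, edgeR adjusted p = 1.3e-07), while Rrm2, a ribonucleotide reductase subunit, averaged 1337 ± 31.9 and 1131 ± 19.6 CPM. Those that fell were Mcm7, Cdt1, Pcna and Chaf1b, with log2 fold changes between -0.16 and -0.12. The 13 G1 genes had no common direction, with 5 that rose and 4 that fell. Mycn rose at a low level, with 1.79, 2.33, 1.33 and 1.86 CPM in Scramble against 0.566, 0.584, 0.357 and 0.489 CPM in Vehicle, the reverse of its relative Myc (log2 fold change 1.87, SE 0.25, edgeR adjusted p = 3.1e-05).

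**Figure D3:**
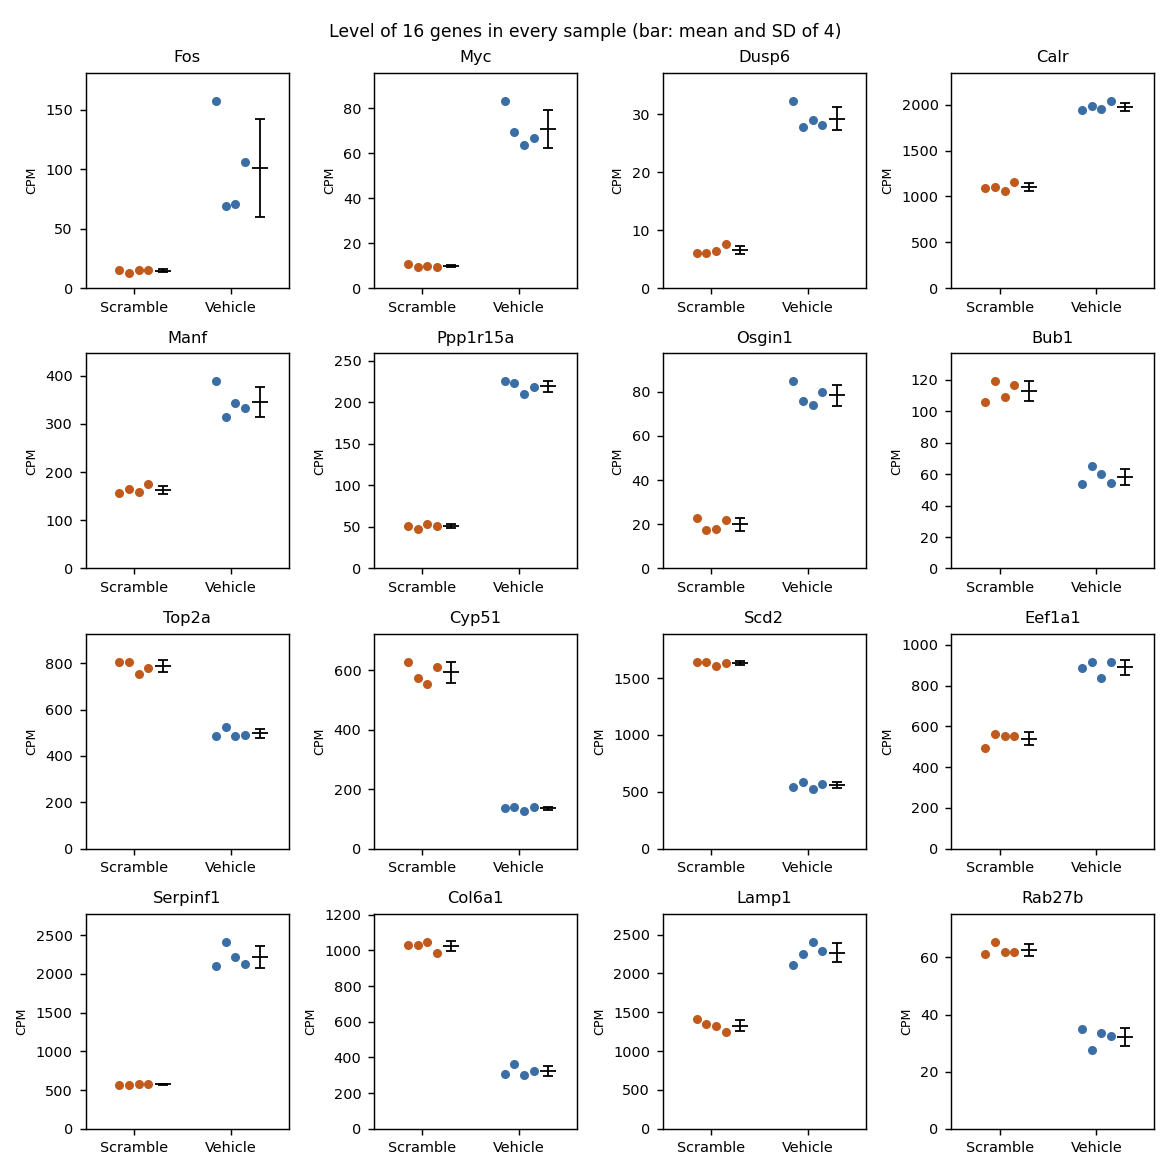
Each panel gives the CPM of a gene in the 4 Scramble samples (orange, left) and the 4 Vehicle samples (blue, right) on a linear axis from 0, with black bars at the mean and SD. All 16 are called genes, and the groups do not overlap in any panel, as in 6108 of all 12633 tested genes. The spread within Fos comes mostly from Vehicle 1 at 157 CPM.

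Genes of the protein synthesis machinery were lower in Scramble by small steps. Of 50 cytosolic ribosomal protein genes 49 fell, 0 rose and only Rpl22 was not called. Their median log2 fold change was -0.41 and the range -0.59 to -0.14. With the test against 1.2-fold, 21 fell. Rps2 had 205, 219, 222 and 225 CPM in Scramble, against 342, 318, 312 and 336 CPM in Vehicle. It was among the most changed (log2 fold change -0.59, SE 0.05, edgeR adjusted p = 1.9e-07), and Rplp0, a stalk protein gene, differed less, at 285 ± 14.9 CPM in Scramble and 327 ± 17.8 CPM in Vehicle. The list took 0.471% to 0.556% of counts in Scramble, against 0.613% to 0.735% in Vehicle. Klf4 siRNA samples held 317 ± 20.4 CPM of Rps2, near its Vehicle mean of 327 CPM, and 361 ± 22.2 CPM of Rplp0, above its Vehicle mean. Ribosomal protein mRNAs are short and have many pseudogenes, so their counts are uncertain. Removing the trend of fold change with gene length left a median of -0.36 and 48 that fell.

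Of 28 translation factors 16 fell, 4 rose and 8 were not called (median -0.18), and 7 fell with the test against 1.2-fold. Eef1a1, which brings tRNA to the ribosome (chromosome 9, 78478449 to 78489151, minus strand), had 492, 561, 553 and 551 CPM in Scramble, against 886, 916, 839 and 918 CPM in Vehicle. Scramble 1 was the lowest sample and no samples overlapped (log2 fold change -0.72, SE 0.05, edgeR adjusted p = 5.4e-08). Eif1a, a start-site scanning factor, averaged 94.6 ± 2.62 CPM in Scramble and 230 ± 32.7 CPM in Vehicle. Those that rose were Eif4b, Eif4e, Eif4g1 and Eif4g2, genes of cap-dependent and related initiation. Of 32 ribosome biogenesis genes 14 fell, 4 rose and 14 were not called (median -0.13), and 2 fell with the test against 1.2-fold. Gnl3, a nucleolar GTPase gene, averaged 48.1 ± 1.93 CPM in Scramble and 87.7 ± 7.59 CPM in Vehicle. Klf4 siRNA samples held 82.1 ± 2.39 CPM of Gnl3, 692 ± 47.8 CPM of Eef1a1 and 124 ± 5.1 CPM of Eif1a, each between the Scramble and Vehicle means. Nucleolin, Ncl, had 459 to 476 CPM in Scramble and 475 to 507 CPM in Vehicle and was not called (edgeR adjusted p = 0.15).

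Lipid synthesis genes were higher in Scramble, and the cholesterol list had the largest median shift of all lists. Of 27 cholesterol genes 24 rose, 1 fell and 2 were not called, with a median log2 fold change of 1.36, and 24 also rose with the test against 1.2-fold. Cyp51, lanosterol demethylase (chromosome 5, 4081145 to 4104746, minus strand), had 630, 576, 554 and 613 CPM in Scramble, against 136, 140, 128 and 139 CPM in Vehicle. Each Scramble sample held about 4 times the Vehicle level (4.38-fold, log2 fold change 2.13, SE 0.05, edgeR adjusted p = 2.2e-12). Idi1, isopentenyl-diphosphate isomerase, averaged 41.1 ± 2.66 CPM in Scramble and 10 ± 1.17 CPM in Vehicle, and Insig1, the SREBP-induced feedback protein of the ER, 226 ± 17.2 and 59.6 ± 2.8 CPM in the same order. The member that fell was Abca1, which exports cholesterol under the control of LXR receptors rather than SREBP, at 11.8 ± 1.4 CPM in Scramble and 39.9 ± 1.71 CPM in Vehicle (log2 fold change -1.76, SE 0.08). The list took 0.454% to 0.482% of counts in Scramble, against 0.161% to 0.166% in Vehicle. In the Klf4 siRNA samples Cyp51 stood at 492 ± 22 CPM and Insig1 at 231 ± 15.6 CPM.

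The strict sterol regulatory element TCACNCCAC was found on either strand in 1 of the 20 cholesterol genes with a window, Hmgcs1, which makes HMG-CoA, and in 1.24% of all windows. The site is shown with 12 bases on each side, in capitals.
Hmgcs1 (chr13:119690202-119690234, plus): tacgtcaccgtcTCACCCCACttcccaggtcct

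Hmgcs1 had 433, 454, 425 and 441 CPM in Scramble, against 119, 115, 119 and 110 CPM in Vehicle. Absence of these letters from the other windows says nothing of other forms of the element. Fatty acid genes rose as well: of 19, 13 rose, 2 fell and 4 were not called (median 0.47). Scd2, a stearoyl-CoA desaturase, had 1646, 1644, 1606 and 1635 CPM in Scramble, against 546, 585, 525 and 570 CPM in Vehicle. The samples within a group were nearly equal (log2 fold change 1.55, SE 0.04, edgeR adjusted p = 4.6e-12). Acly, which makes cytosolic acetyl-CoA, averaged 1416 ± 14.1 CPM in Scramble and 539 ± 34.1 CPM in Vehicle. The desaturase gene Fads2 averaged 477 ± 11.5 CPM in Scramble and 192 ± 14.6 CPM in Vehicle. The factor gene Srebf1 and the elongase gene Elovl1 were the members that fell.

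Energy metabolism had no shift of that size. Glycolysis genes had no common direction, and oxidative phosphorylation genes fell slightly. Of 27 glycolysis and hypoxia genes 9 fell, 7 rose and 11 were not called (median -0.07). Ldha, lactate dehydrogenase A, averaged 924 ± 44 CPM in Scramble and 1302 ± 14.9 CPM in Vehicle, and the glucose transporter gene Slc2a1 averaged 45.4 ± 1.02 CPM in Scramble and 87.3 ± 3.29 CPM in Vehicle. Pfkl, a phosphofructokinase, went the other way, at 122 ± 2.85 CPM in Scramble and 75 ± 8.44 CPM in Vehicle. Pkm, pyruvate kinase, overlapped at 1855 to 1949 CPM in Scramble and 1844 to 2067 CPM in Vehicle. Of 37 nuclear genes of oxidative phosphorylation 17 fell, 1 rose and 19 were not called, with a median of -0.15. None passed the test against 1.2-fold, the median was -0.08 once the length trend was removed, and 9, 10 and 11 fell without Scramble 1, Scramble 2 or Vehicle 4.

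Of 24 genes of insulin and IGF signalling and FoxO targets 11 fell, 6 rose and 7 were not called (median -0.12). Irs2, an insulin receptor substrate (chromosome 8, 10984681 to 11008458, minus strand), had 46.9, 50.7, 48.8 and 38 CPM in Scramble, against 133, 164, 146 and 162 CPM in Vehicle (log2 fold change -1.72, SE 0.09, edgeR adjusted p = 4.5e-09). Deptor, an inhibitor of mTOR, averaged 14.2 ± 0.987 CPM in Scramble and 49 ± 2.8 CPM in Vehicle. Irs2 and Deptor were lower in every Scramble sample. Fbxo32, a muscle ubiquitin ligase known as a FoxO target, is not on this list and was named among the largest falls of the whole table. It had 2.53 to 3.64 CPM in Scramble against 11.9 to 16.2 CPM in Vehicle. On the list, the IGF-binding protein gene Igfbp5 rose. It had 52, 79.5, 71.9 and 66.5 CPM in Scramble against 13.7, 13.8, 14.2 and 14.3 CPM in Vehicle (log2 fold change 2.27, SE 0.11, edgeR adjusted p = 2.1e-09). The Klf4 siRNA samples held 28.2 ± 4.52 CPM of Igfbp5.

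The cytoskeleton changed in both directions. Of 19 targets of serum response factor, actin regulators and YAP 13 fell, 2 rose and 4 were not called (median -0.45). The serum response element, CC, 6 of A or T and GG, stood in the windows of 3 of the 15 members with a window. These were Actg1 and Srf, the 2 that rose, and Vcl, which fell. It was found in 16.7% of the list's windows, against 1.63% of all. Tpm1, tropomyosin, had 248, 251, 250 and 250 CPM in Scramble, against 649, 606, 600 and 584 CPM in Vehicle. The Scramble samples were nearly identical (log2 fold change -1.29, SE 0.04, edgeR adjusted p = 3e-11). Outside this list, 2 genes named for their large fall in CPM over the whole table also belong to the cytoskeleton or bind it. The myosin light chain gene Myl12a averaged 533 ± 21.7 CPM in Scramble and 1485 ± 55.2 CPM in Vehicle. Fhl1, a LIM-domain protein gene, averaged 1446 ± 31 and 4133 ± 75.5 CPM in the same order. Of 11 tubulin alpha and beta genes, a group chosen after its values were seen, 9 rose, 0 fell and 2 were not called. Tuba1a had 3375, 3374, 3380 and 3517 CPM in Scramble, against 1640, 1844, 1572 and 1784 CPM in Vehicle (log2 fold change 1.00, SE 0.05, edgeR adjusted p = 2.4e-09). Tubb5 averaged 1406 ± 33.7 CPM in Scramble and 826 ± 61.9 CPM in Vehicle, and the neuronal Tubb3 78.7 ± 9.88 and 37 ± 3.53 CPM. Tubulin genes are close paralogs, so reads may have been shared between them. Among 19 genes of TGF-beta, BMP and Notch feedback 5 rose, 4 fell and 10 were not called. Tgif1, a co-repressor of SMAD factors, averaged 31.1 ± 2.48 CPM in Scramble and 68.5 ± 7.79 CPM in Vehicle, and Id2, a BMP target, 93.2 ± 9.42 and 61.8 ± 6.41 CPM.

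**Figure D4:**
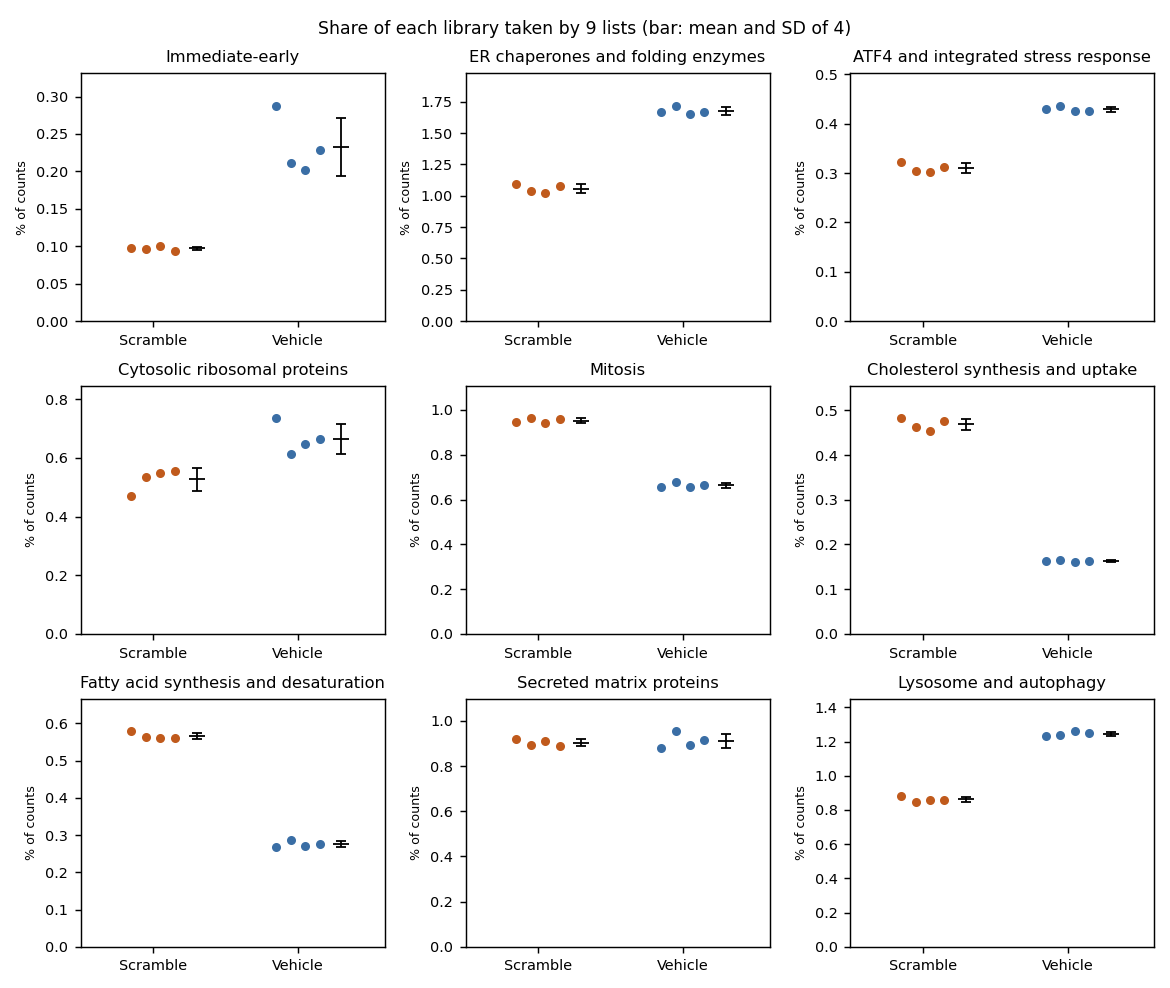
Each panel gives the percent of a library's counts taken by the summed members of a list in the 4 Scramble samples (orange, left) and the 4 Vehicle samples (blue, right), with black bars at the mean and SD and the axis from 0. Immediate-early, chaperone, ATF4, ribosomal protein and lysosome shares are lower in every Scramble sample, mitosis and lipid shares are higher, and the summed matrix share overlaps at 0.889% to 0.92% in Scramble and 0.881% to 0.954% in Vehicle.

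Along the secretory route, the entry steps fell slightly and the later steps had no common direction. Of 30 genes of the Sec61 translocon, signal peptidase and oligosaccharyltransferase 15 fell, 0 rose and 15 were not called, with a median log2 fold change of -0.14. With the test against 1.2-fold 2 fell, and with single samples left out 11 to 17 fell. Rpn2, an oligosaccharyltransferase subunit, had 1183 to 1202 CPM in Scramble and 1290 to 1395 CPM in Vehicle (log2 fold change -0.16, SE 0.04, edgeR adjusted p = 0.0019). Sec62, which helps the translocon take up proteins after their synthesis, averaged 80.9 ± 0.817 CPM in Scramble and 113 ± 13.7 CPM in Vehicle. Of 25 COPII genes, whose coat buds vesicles off the ER, 13 fell, 2 rose and 10 were not called (median -0.14), and again 2 fell with the test against 1.2-fold. Sec24d, a cargo-binding coat subunit, averaged 120 ± 6.48 CPM in Scramble and 158 ± 3.1 CPM in Vehicle. Of 20 COPI genes, whose coat returns proteins to the ER, 8 fell, 5 rose and 7 were not called (median -0.01). The small GTPase gene Arf4 fell, at 558 ± 29.7 CPM in Scramble and 721 ± 22.9 CPM in Vehicle, and the coat gene Copg1 rose, at 414 ± 8.01 and 346 ± 17.7 CPM. Of 27 Golgi genes 7 fell, 5 rose and 15 were not called (median -0.04), and the 25.9% that fell lie near the share of all tested genes. Stx5a, the Golgi SNARE, averaged 113 ± 0.745 CPM in Scramble and 170 ± 6.04 CPM in Vehicle, while Ykt6, a partner SNARE, averaged 68.4 ± 2.84 and 45.2 ± 5.17 CPM.

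Of 14 measured granins, prohormones and processing enzymes 7 fell, 3 rose and 4 were not called. Cpe, the carboxypeptidase that trims prohormones, had 288, 283, 297 and 289 CPM in Scramble, against 479, 483, 477 and 482 CPM in Vehicle. Pam, which amidates peptides such as GnRH, had 37, 43.5, 38.5 and 37 CPM in Scramble, against 68.9, 67.4, 72.9 and 73.6 CPM in Vehicle. Both processing enzymes were thus lower in the samples where Gnrh1 itself was higher (Cpe log2 fold change -0.73, SE 0.03, edgeR adjusted p = 2e-09, and Pam -0.86, SE 0.06, edgeR adjusted p = 1.2e-07). Klf4 siRNA samples held 745 ± 66.1 CPM of Gnrh1, nearer its Vehicle mean of 671 CPM than its Scramble mean of 1677 CPM. They held 415 ± 18.9 CPM of Cpe and 46.6 ± 2.22 CPM of Pam, both between the Scramble and Vehicle means. Chgb, chromogranin B, rose at a low level, to 4.76 ± 0.303 CPM in Scramble, against 1.68 ± 0.14 CPM in Vehicle, and stood at 1.7 ± 0.374 CPM in the Klf4 siRNA samples. Of 33 SNARE and vesicle release genes 12 rose, 8 fell and 13 were not called (median 0.06), and 5 rose with the test against 1.2-fold. Rab27b, a GTPase that docks secretory granules, had 61.1, 65.5, 62 and 61.9 CPM in Scramble, against 34.8, 27.6, 33.6 and 32.4 CPM in Vehicle (log2 fold change 0.96, SE 0.07, edgeR adjusted p = 1e-07), and 28.8 ± 3.31 CPM in the Klf4 siRNA samples. Cadps, a priming factor of dense-core granules, averaged 7.7 ± 1.01 CPM in Scramble and 12.5 ± 1.44 CPM in Vehicle.

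Secreted matrix proteins changed often and in both directions: of 36, 17 rose, 13 fell and 6 were not called. Col6a1, a collagen VI chain (chromosome 10, 76708792 to 76726168, minus strand), had 1031, 1028, 1049 and 985 CPM in Scramble, against 305, 362, 304 and 326 CPM in Vehicle. Its partner chain Col6a2 averaged 278 ± 13 CPM in Scramble and 95.2 ± 12.4 CPM in Vehicle. Both chains rose, by 1.66 (SE 0.05) and 1.55 (SE 0.08) on the log2 scale. Fibronectin, Fn1, averaged 1445 ± 96.3 CPM in Scramble and 886 ± 38.2 CPM in Vehicle. Serpinf1, the secreted factor PEDF (chromosome 11, 75409769 to 75422701, minus strand), went the other way, with 570, 564, 575 and 581 CPM in Scramble against 2103, 2414, 2211 and 2121 CPM in Vehicle (log2 fold change -1.95, SE 0.05, edgeR adjusted p = 2.2e-12). Other abundant secreted products, outside this list and named for their large fall in CPM, were lower too. The protease inhibitor cystatin C, Cst3, averaged 500 ± 26.6 CPM in Scramble and 1612 ± 54.1 CPM in Vehicle. Mfge8, a milk fat globule protein gene, averaged 596 ± 5.32 and 1311 ± 51.8 CPM in the same order. Stc1, the hormone stanniocalcin and also outside the list, rose 4.32-fold (SE 0.06 on the log2 scale). It averaged 127 ± 5.37 CPM in Scramble and 29.4 ± 1.79 CPM in Vehicle.

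Lysosome and autophagy genes were lower in Scramble. Of 30, 23 fell, 1 rose and 6 were not called, with a median log2 fold change of -0.40, and 16 fell with the test against 1.2-fold. Lamp1, the main lysosomal membrane protein (chromosome 8, 13159161 to 13175338, plus strand), had 1407, 1347, 1322 and 1241 CPM in Scramble, against 2110, 2256, 2408 and 2290 CPM in Vehicle. Ctsa, the protective protein cathepsin A, had 586, 574, 574 and 583 CPM in Scramble, against 1041, 1093, 1011 and 1084 CPM in Vehicle. Neither gene overlapped between the groups (Lamp1 log2 fold change -0.77, SE 0.05, edgeR adjusted p = 3e-08, and Ctsa -0.87, SE 0.04, edgeR adjusted p = 6.5e-10). Cathepsin D, Ctsd, averaged 1461 ± 53.7 CPM in Scramble and 2179 ± 60.5 CPM in Vehicle. The member that rose was Gla, alpha-galactosidase, at 34.7 ± 2.3 CPM in Scramble and 28.3 ± 0.537 CPM in Vehicle. The list took 0.847% to 0.884% of counts in Scramble, against 1.23% to 1.26% in Vehicle. In the Klf4 siRNA samples Lamp1 stood at 1924 ± 103 CPM, between the Scramble and Vehicle means, Ctsa at 1053 ± 42.4 CPM, near its Vehicle mean of 1057 CPM, and Ctsd at 2645 ± 138 CPM, above its Vehicle mean.

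The palindrome TCACGTGA, the core of the CLEAR element that the factor TFEB is known to bind, stood in 5 of 22 lysosome genes with a window, in 17.9% of their windows against 0.974% of all. Of these 5, Atp6v0d1, Ctsa, Ctsd and Mcoln1 fell and Gla rose. Sites of 3 are shown with 8 bases on each side, the core in capitals, with 1 of the 2 matches in the Ctsa window.
Ctsa (chr2:164833752-164833775, plus): gcaaactgTCACGTGAtgcagatg
Ctsd (chr7:142387911-142387934, minus): cccgcgtcTCACGTGAcccgttga
Mcoln1 (chr8:3500465-3500488, plus): cgccccgcTCACGTGAccgcggcg

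Of 32 genes of calcium stores, entry and buffering 11 rose, 10 fell and 11 were not called, with a median of 0.01. The 34.4% that rose and the 31.2% that fell lie a little above the shares of all tested genes. Rcan2, an inhibitor of the Ca2+-dependent phosphatase calcineurin, had 41, 49, 52.7 and 45.1 CPM in Scramble, against 136, 148, 132 and 149 CPM in Vehicle (log2 fold change -1.59, SE 0.07, edgeR adjusted p = 1.3e-09). Rcn2, a Ca2+-binding protein of the ER lumen, averaged 321 ± 5.12 CPM in Scramble and 471 ± 8.2 CPM in Vehicle. Calm3, a calmodulin gene, rose, at 240 ± 2.84 CPM in Scramble and 140 ± 8.43 CPM in Vehicle. Of 15 genes of the GnRH neuron and reproductive axis 5 rose, 1 fell and 9 were not called.

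Beyond the lists, the largest rises among genes expressed at a mean log2 CPM of at least 2 included Tmem255a, a membrane protein gene, with 57.7, 59.1, 54 and 59.1 CPM in Scramble against 9.68, 10.3, 10.8 and 8.14 CPM in Vehicle (5.93-fold, SE 0.08 on the log2 scale). Cdhr1, a photoreceptor cadherin gene, averaged 93.7 ± 5.44 CPM in Scramble and 21.8 ± 2.07 CPM in Vehicle. The inward rectifier channel gene Kcnj2 averaged 7.58 ± 1.11 CPM in Scramble and 2.23 ± 0.228 CPM in Vehicle. These genes, and the falls that follow, were ranked only among called genes whose groups did not overlap, so their separation was set by that choice. Among the largest falls, Anxa3, an annexin gene, had 82, 91.5, 90.4 and 88.7 CPM in Scramble against 410, 391, 406 and 408 CPM in Vehicle (log2 fold change -2.20, SE 0.05, edgeR adjusted p = 1.6e-12). Ccn5, a matricellular protein gene, averaged 4.54 ± 0.793 CPM in Scramble and 27.2 ± 3.97 CPM in Vehicle. Pcolce2, which enhances procollagen processing, averaged 3.47 ± 0.358 CPM in Scramble and 17.8 ± 0.675 CPM in Vehicle.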

How the data were processed

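RNA-seq libraries of GT1-7 cells were analysed from the authors' deposited table of this comparison. Per the file headers it holds raw counts per Ensembl gene, RPKM values per sample, and the authors' own log2 fold change and FDR. The deposited counts are exon counts per the labels' design text. FastQC, STAR, STAR-Fusion, Subread and edgeR are named with build mm10 in the submitters' processing notes. The counting of reads with several matches is not stated in the sources at hand, and the library kit does not mark strand, so overlapping genes and near-identical copies are uncertain.

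The counts of 4 Scramble and 4 Vehicle samples were fitted with edgeR 4.0.16 (R 4.3.3, limma 3.58.1): its default filter on low counts, TMM scaling, the quasi-likelihood test and Benjamini-Hochberg adjustment over 12633 genes. Levels are CPM on TMM-scaled library sizes. The code was tested on simulated data. Gene positions are those of GENCODE M21 on mm10. Promoter windows are RefSeq's on GRCm38.p6. They were searched for 9 motifs, and not every list result of these searches is reported here.

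Members and gene lists were chosen with earlier results of these data known. Named genes were, in each list, the 4 called members with the smallest p, the 2 with the largest change and the 2 with the highest level. Over the whole table they were the 20 largest rises and falls among called genes whose mean log2 CPM reached 2 and whose groups did not overlap. The 15 with the largest difference in level each way were added. Gene models, RIKEN clones, pseudogenes and numbered GenBank clones were left out of these whole-table choices. Gnrh1, Klf4 and Hspa5 were always kept. Single exceptions to a list's direction, not-called members and genes whose promoter site is printed stand outside this rule and were chosen after their values were seen. Some genes that the rule names are not reported here. The alternatives were RLE scaling, DESeq2 1.42.0, no filter, a mean of at least 10 CPM, a replicate block, all 12 samples in 1 fit, removal of the length trend, a test against 1.2-fold and each sample left out.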

Additional observations from a re-analysis of the deposited data

Results flagged for a closer look

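In 13 of 306 groups of 4 samples checked, 1 sample lay further from the other 3 than Dixon's 95% critical value allows, as a share of the group's range. Chance gives about 1 in 20. Values are CPM.

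Among Scramble samples, Scramble 1 was low for Eef1a1 (492, against 551 to 561 in the others), Cst3 (460, against 513 to 515), Arf4 (513, against 571 to 576) and Rpl22 (30.0, against 36.4 to 37.3), and high for Chac1, a glutathione-degrading enzyme gene (9.73, against 8.73 to 8.86). Scramble 4 was low for Slc30a1 (12.1, against 19.0 to 19.3), Cadps (6.19, against 8.12 to 8.37) and Kcnj2 (5.91, against 8.04 to 8.18), and high for Tuba1a (3517, against 3374 to 3380). Among Vehicle samples, Vehicle 1 was high for Cdkn1a (325, against 268 to 273). Vehicle 2 was high for Top2a (526, against 485 to 492) and Eif4g1 (284, against 254 to 255), and low for Pcna, the replication clamp (203, against 229 to 234).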

How the results depend on the processing

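Of 138 named genes run under all 16 alternatives, 113 kept their direction and their side of the threshold. The other 15, under a mean of 10 CPM, were not run under the filter at that level, and 12 of them kept both under the remaining 15 alternatives. The exceptions were mostly small changes that lost the call when tested against 1.2-fold. Genes that rose and fell numbered 1512 and 1296 with that test, 3159 and 2984 with the replicate block, and 3149 to 3423 and 2844 to 3332 with single samples left out. The labels do not say whether the replicate numbers pair the samples. Deviations from the group means correlated at -0.199, -0.0394, -0.0388 and -0.104 for same-numbered samples. For differently numbered samples they ran from -0.0936 to 0.229. So few values cannot settle whether the samples are paired.

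Tested against 1.2-fold, the members that fell were 15 of the ATF4 list, 4 tRNA synthetases, 4 heat shock, 5 interferon, 2 ribosome biogenesis, 21 ribosomal protein, 7 translation, 5 glycolysis, 0 oxidative phosphorylation, 2 translocon, 2 COPII, 1 COPI and 3 Golgi genes, and 1 astrocyte and 1 oligodendrocyte marker. Those that rose were 4 S phase, 1 G1, 5 SNARE and 6 calcium genes. With a mean of at least 10 CPM, 7 cytokine and 5 ERK feedback genes and 1 oligodendrocyte marker fell, and 3 TGF-beta, 2 GnRH axis and 3 neuron genes rose. Fewer members reach that level. The replicate block left 1 oligodendrocyte marker that fell, and the fit of all 12 samples gave 2 microglial markers. With single samples left out, 9 to 24 oxidative phosphorylation genes, 1 to 2 oligodendrocyte and 1 to 2 microglial markers fell. Of single genes, Cks2, not called, changed sign to -0.05 without Vehicle 2, with -0.05 to 0.19 over the left-out samples, and the cause was not tested. Depth limits genes of a few CPM, such as Mycn and Plk2.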

Other observations

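Genes with the TCACGTGA core in their promoter window also fell often outside the lysosome list. Of 205 such genes tested, 87 fell (42.4%) and 35 rose (17.1%), beside 26.7% and 27.5% of the 9820 tested genes with any window. Over the 1306 tested genes with TGACGT, the core of the cAMP response element, 32.6% fell and 23.2% rose. The antioxidant letters TGACNNNGC gave 31.3% and 25.2% of 1654 genes. These shares are descriptions of windows, given without a test.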
